A study of Homo sapiens with 2 samples.

Results

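The fibronectin leucine-rich transmembrane (FLRT) proteins and the UNC5 receptors that bind them were followed in A2780 human ovarian carcinoma cells made resistant to carboplatin or to carboplatin with docetaxel. The members were FLRT1, FLRT2, FLRT3, UNC5A, UNC5B, UNC5C and UNC5D, taken by the gene name given to each probe. They make up 7 of 30238 gene names, and 10 of 41000 probes, on Agilent whole human genome arrays with 43376 spots. The family was selected with its log2 ratios already known, those of FLRT3 above all, so the member values are a description and carry no test.

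By the sample labels, A2780CBN had been selected to 22.2 µM carboplatin. A2780CBNDXL had been selected with carboplatin and docetaxel together, and its dose is not given here since the labels and the study state different ones. Each line was set against its own co-cultured control, named A2780CC, which was grown alongside without selection. A docetaxel line, A2780DXL, was left aside. Each line is 1 sample, a pool of 3 RNA isolations, and the same pool was hybridized to 4 arrays, in both labelling directions per slide on 2 slides. Array 1 and array 2 lay on slide 1, array 3 and array 4 on slide 2, and the odd numbers carried the forward labelling. The SD over 4 arrays, given after ±, therefore holds labelling and hybridization error and no spread between cultures. In bulk RNA, fewer cells that express a gene and less RNA per cell cannot be told apart.

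FLRT proteins are single-pass adhesion proteins with leucine-rich repeats and a fibronectin type III domain outside the cell. They bind UNC5 receptors and latrophilins on neighbouring cells and associate with FGF receptors and ROBO1 in their own membrane. UNC5 receptors are best known as netrin receptors that mediate repulsion of growing axons, and as dependence receptors whose cytoplasmic death domain can signal cell death when netrin-1 is missing.

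A gene was called changed in a line when its mean log2 ratio, resistant line to control, reached 1 in either direction, all 4 arrays shared its sign, and 1 channel was well above background on every array. In A2780CBN, 3 of the 7 members passed the background filter and 2 were changed, UNC5B upward and FLRT3 downward. Among all 17951 genes that passed there, 2253 (12.6%) were changed, 1436 of them higher and 817 lower. In A2780CBNDXL, 4 members passed and 2 were changed, UNC5C upward and FLRT3 downward. Of 17115 genes in that line 2893 (16.9%) were changed, 1318 of them higher and 1575 lower. Since the members were selected on these ratios, nothing is read from their share. The plot of log2 ratios shows all 10 member probes.

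**Figure D1:**
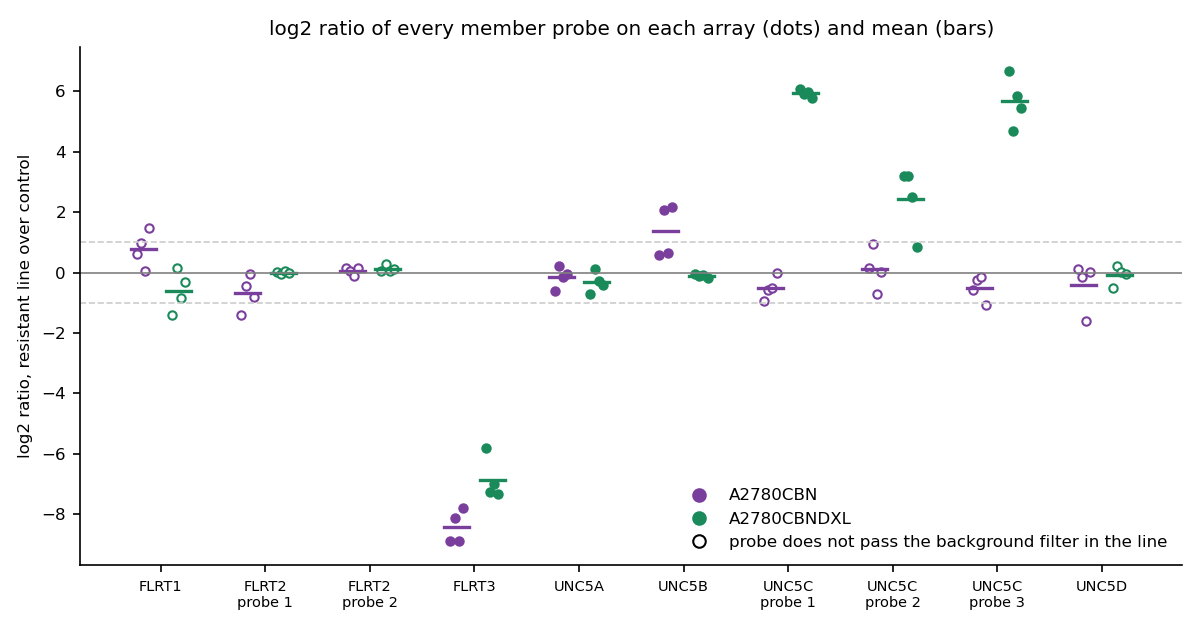
Log2 ratios, resistant line to control (vertical axis, log2 units), are plotted for all 10 member probes, with dots for the 4 arrays of each line, bars for the mean, dashed lines at 1 and -1, and hollow dots where the probe did not pass the background filter in that line. FLRT3 lies at -8.42 and -6.85, UNC5C reaches 5.94 in A2780CBNDXL, and UNC5B lies at 1.37 in A2780CBN and -0.10 in A2780CBNDXL.

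Among the ligands, FLRT3 was the member with lower signal in both resistant lines. Its probe lies on chr20:14253974-14254033 (minus strand, NCBI36). The middle 30 of its 60 bases, from the deposited files, are shown since every FLRT3 value rests on this 1 probe. Exon and untranslated region positions of the probes were not determined here.
FLRT3 probe, bases 16 to 45, chr20:14253989-14254018: ctgcgattgatgtagtggagatgcctgaac

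In the A2780CBN arrays, the FLRT3 control signal was 4777, 2988, 4428 and 2911 on arrays 1 to 4, and the resistant signal was 10.2, 10.8, 9.3 and 13.0, in arbitrary units. All 4 control values were high, all 4 resistant values were not well above background, and the groups did not overlap. In A2780CBN the FLRT3 signal was lower by at least 160.1-fold, with a measured log2 ratio of -8.42 ± 0.55 (-8.49 on slide 1 and -8.35 on slide 2). Such a bound sets the brighter channel against the lowest signal still well above background, after channels were scaled between arrays.

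In the A2780CBNDXL arrays, the FLRT3 control signal was 3474, 5487, 4308 and 4424, and the resistant signal was 61.5, 35.5, 34.2 and 27.5. Here the resistant channel was low on every array yet well above background on all 4, and again the groups did not overlap. The log2 ratio was -6.85 ± 0.70, a 115-fold lower signal, with -6.55 on slide 1 and -7.15 on slide 2. Array 1 of this line stood apart in quality, since the CV of its spike-in controls was 19.55% in green and 19.99% in red against 3.56% to 4.87% on the other arrays. Without it the FLRT3 ratio was -7.14.

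**Figure D2:**
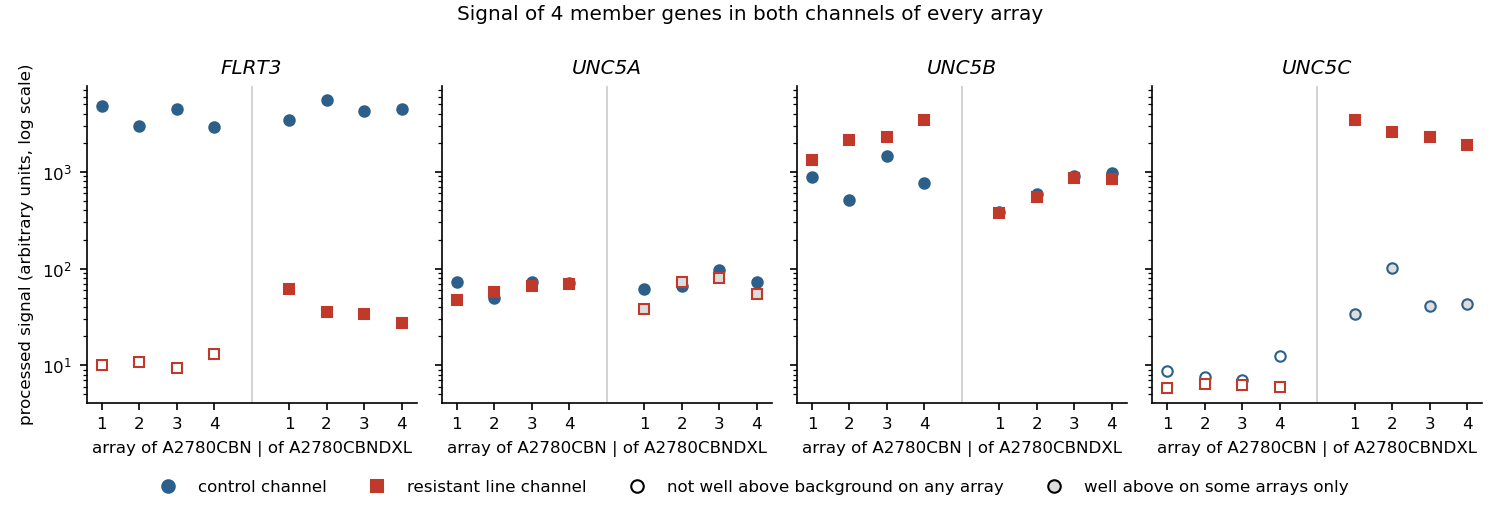
Processed signal (vertical axis, arbitrary units, log scale) of FLRT3, UNC5A, UNC5B and the UNC5C probe that represents the gene is plotted for both channels of arrays 1 to 4 of each line. White symbols mark channels that stayed near background on all arrays of the line and grey symbols those well above it on some arrays only, and the FLRT3 control channel (2911 to 5487) stays far above the resistant channels (9.3 to 61.5).

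After scaling between arrays, the mean log2 level of FLRT3 was highest in the A2780CBNDXL control (12.05 ± 0.11), followed by the A2780CBN control (11.87 ± 0.36). The level in A2780CBNDXL was 5.20 ± 0.63, and in A2780CBN, where the probe was not well above background, it was 3.45 ± 0.23. The control channels differed by 0.18 ± 0.44 over 4 pairs of arrays with the same slide and labelling direction, less than that spread. The resistant channels allowed only a bound, with array 1 included, by which FLRT3 was at least 1.57-fold higher in A2780CBNDXL. That bound comes from the processed signals and was not computed with normexp correction.

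The difference between the lines in the FLRT3 ratio, A2780CBNDXL minus A2780CBN, was 1.57 ± 1.16 and ran from 0.47 to 3.05 over the pairs. This measured order rests on an A2780CBN channel not well above background and turned to -0.38 with normexp background correction and an offset of 50. With that correction the FLRT3 ratios were -3.63 in A2780CBN and -4.01 in A2780CBNDXL, still lower than control in both. Set against the control of the other line, the A2780CBN signal was lower by at least 181-fold, and the ratio in A2780CBNDXL was -6.67 ± 0.44. By the rule, 294 genes, FLRT3 among them, were lower in both lines.

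FLRT3 has its own neighbours on chromosome 20, where 19 gene names had a probe within 2 Mb. In A2780CBN 7 of them passed the filter and 0 were changed (all genes: 12.6%), with a median log2 ratio of -0.09 (all genes: -0.06). In A2780CBNDXL 8 passed and 1 was lower (all genes: 16.9% changed), with a median of -0.41 (all genes: 0.04). That gene was MACROD2, a mono-ADP-ribose hydrolase in whose gene FLRT3 lies, at -1.14 ± 0.86, a dim probe that was well above background in the resistant channel on 1 of 4 arrays. The closest named genes that passed were C20orf7 (-0.69 in A2780CBN, -0.94 in A2780CBNDXL) and ESF1 (-0.71 and -0.52). On the other side KIF16B was at -0.03 and 0.13.

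**Figure D3:**
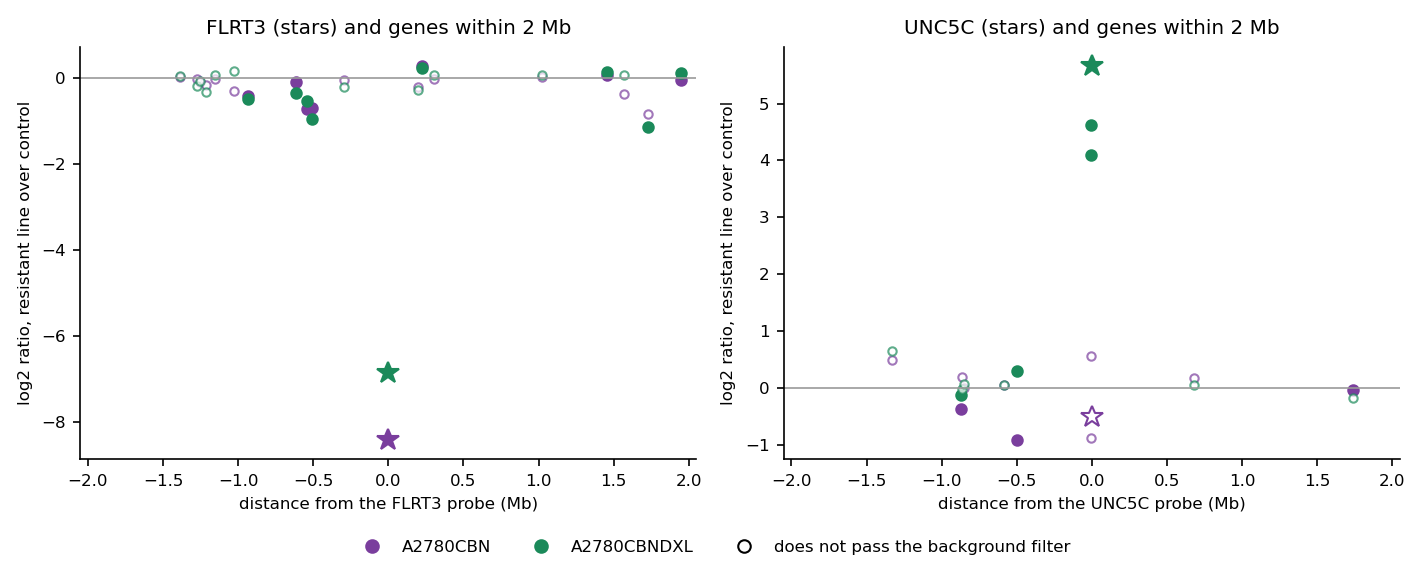
Log2 ratios, resistant line to control (vertical axis), are plotted against the distance in Mb from the FLRT3 probe (left) and the UNC5C probe (right), with stars for the member, circles for other gene names and unnamed probes, and hollow symbols where the background filter was not passed. Around FLRT3 no other mean ratio lies below -1.14, while beside UNC5C there are ratios of 4.62 and 4.10 in A2780CBNDXL.

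The sequence before the start of FLRT3 is shown since FLRT3 was low in both resistant lines. It covers 250 bases, chr20:14337613-14337862 (minus strand, RefSeq, GRCh38.p14), with CG dinucleotides in capitals.
FLRT3 promoter: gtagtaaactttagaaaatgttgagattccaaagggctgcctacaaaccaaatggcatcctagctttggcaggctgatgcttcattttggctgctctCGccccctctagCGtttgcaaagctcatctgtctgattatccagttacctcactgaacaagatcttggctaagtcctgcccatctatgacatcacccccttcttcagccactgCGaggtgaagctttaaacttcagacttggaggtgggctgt
It held 3 CG dinucleotides at 47.6% GC, and 22.9% of 35116 promoters of that length held fewer, with a median of 11. Searched on both strands, 5 motifs were found 0 times. Of the 35116 promoters, 14973 held GGGCGG, 3763 held TATAAA, 11240 held CCAAT, 2228 held CACGTG and 2308 held TGANTCA. A missing match says only that these letters are not in the window.

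FLRT1 and FLRT2 were not well above background in most channels, so no fold is given for them. The FLRT1 signal lay between 4.36 and 24.7 over all arrays and channels and was well above background on 0 of 4 arrays in each. MACROD1, the gene that holds FLRT1, was well above background throughout and did not pass the 2-fold limit, with log2 ratios of -0.02 ± 0.26 in A2780CBN and 0.09 ± 0.14 in A2780CBNDXL. Of the 2 probes of FLRT2, 1 was never well above background, and the other was so only on array 3 of A2780CBNDXL, in both channels (46.8 for the resistant RNA, 45.0 for the control RNA).

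Among the receptors, UNC5A was detected at low signal and no change passed the rule. Its signal lay between 38.3 and 96.8 in all channels, and the log2 ratio was -0.15 ± 0.35 in A2780CBN and -0.31 ± 0.34 in A2780CBNDXL. The scaled log2 levels in the 4 RNAs ran from 5.87 to 6.18, with SDs of 0.26 to 0.37. UNC5D did not rise well above background in a single channel, with signals between 4.45 and 34.7.

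UNC5B, the member with the most uniform detection, was called higher in A2780CBN and had no call in A2780CBNDXL. Its probe lies on chr10:72729603-72729662 (plus strand, NCBI36), and its middle stretch is shown as the 1 source of the UNC5B values.
UNC5B probe, bases 16 to 45, chr10:72729618-72729647: agaaaaacccagtttcttaggaaacgcaaa

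In the A2780CBN arrays, the UNC5B resistant signal was 1318, 2153, 2288 and 3468, and the control signal was 882, 514, 1454 and 771. The resistant channel was the brighter on each array, although the ranges of the channels overlapped between arrays. The log2 ratio was 1.37 ± 0.87, a 2.58-fold higher signal (1.32 on slide 1 and 1.41 on slide 2). The labelling direction moved it, with 0.58 and 0.65 on the forward arrays and 2.07 and 2.17 on the reverse arrays. With normexp correction the mean was 0.99, just under the 2-fold limit, which ended the call.

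In the A2780CBNDXL arrays, the UNC5B resistant signal was 372.5, 545, 858 and 852, and the control signal was 386, 585, 911 and 966. The channels overlapped, and the ratio was -0.10 ± 0.06, with the control slightly brighter on all 4 arrays. The scaled log2 level of UNC5B was 11.15 ± 0.65 in A2780CBN, then 9.78 ± 0.63 and 9.34 ± 0.56 in the controls of A2780CBN and A2780CBNDXL, and 9.24 ± 0.52 in A2780CBNDXL.

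The UNC5B ratio in A2780CBNDXL minus that in A2780CBN was -1.47 ± 0.91 over the pairs of arrays, and this difference was not tested. The resistant channels differed by -1.91 ± 0.41 and the control channels by -0.44 ± 0.52. Against the control of the other line, the ratios were 1.81 ± 0.37 in A2780CBN and -0.55 ± 0.47 in A2780CBNDXL.

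Near UNC5B on chromosome 10, 63 gene names had a probe within 2 Mb, a window examined after the values were seen. In A2780CBN 45 passed the filter, 7 were higher and 0 lower (all genes: 12.6% changed), with a median of 0.44 (all genes: -0.06). In A2780CBNDXL 44 passed, 2 were higher and 4 lower (all genes: 16.9% changed), with a median of 0.01 (all genes: 0.04). CDH23, a cadherin of hair cell links, was higher in both lines, at 3.16 ± 0.09 in A2780CBN and 3.51 ± 0.09 in A2780CBNDXL.

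UNC5C, a receptor of netrins, was the member with the highest ratio, in A2780CBNDXL. The array has 3 UNC5C probes on chr4 (minus strand, NCBI36), and their middle stretches are shown to let the probes be told apart.
UNC5C probe 1, bases 16 to 45, chr4:96308752-96308781: aaataactaagactcctattccttggaggg
UNC5C probe 2, bases 16 to 45, chr4:96360203-96360232: tgagtcagatattattgactcttcggcact
UNC5C probe 3, bases 16 to 45, chr4:96303417-96303446: aaagtaacaaatggcatctgtacatgtagg
Probe 3 represented the gene because its mean signal was the highest, although it was the only 1 of the 10 member probes whose record had no match in RefSeq.

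In the A2780CBNDXL arrays, the probe 3 resistant signal was 3453, 2616, 2308 and 1898, and the control signal was 33.6, 100.8, 40.7 and 43.3. The resistant channel lay above every control value, and on 3 of 4 arrays the control was still well above background. The log2 ratio was 5.67 ± 0.83, a 50.8-fold higher signal (5.69 on slide 1 and 5.64 on slide 2), and 5.45 without array 1.

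The other UNC5C probes gave the same direction in A2780CBNDXL. Probe 1 had a resistant signal of 1156, 1228, 1244 and 806 against a control signal of 17.1, 20.3, 19.6 and 14.6. On all 4 arrays its control channel failed to rise well above background, so the probe 1 signal was at least 54.1-fold higher there, with a measured ratio of 5.94 ± 0.12. Probe 2 had a resistant signal of 74.1, 89.6, 72.3 and 165 against a control signal of 8.17, 9.71, 12.7 and 91.8, with a ratio of 2.44 ± 1.11. Array 4 held the high value in both channels of probe 2. The control channel of probe 2 was well above background on 1 of 4 arrays, so its ratio is not read as a size. With normexp correction the ratio of probe 1 was 2.07 and that of probe 2 was 0.36, which ended the call of probe 2.

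In A2780CBN the UNC5C probes were not well above background in either channel on any of the 4 arrays. By bounds, the probe 3 signal was at least 104-fold higher in A2780CBNDXL than in A2780CBN, and at least 2.11-fold higher in the control of A2780CBNDXL, well above background on 3 of 4 arrays, than in that of A2780CBN. The scaled log2 levels of probe 3 were 11.25 ± 0.48 in A2780CBNDXL and 5.59 ± 0.56 in its control. The measured difference of the ratios between the lines, 6.18 ± 0.98, rests on A2780CBN channels not well above background and is not read as a size. With normexp correction it was 2.78, and the difference of the control channels, 2.34 ± 0.80 as measured, was 0.040.

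The size of the UNC5C ratio in A2780CBNDXL depended on the signals used. It was 2.74 with normexp correction and 4.68 as the mean over its probes. Set against the A2780CBN control, itself not well above background, the signal of the probe that represents the gene was at least 106.9-fold higher. The bounds from the other UNC5C probes were smaller, at least 47.45-fold and at least 4.03-fold.

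A gene beside UNC5C was also higher in A2780CBNDXL. Within 2 Mb of UNC5C, a window examined after the values were seen, 10 gene names had a probe. In A2780CBN 3 passed and 0 were changed (all genes: 12.6%), and in A2780CBNDXL 4 passed and 2 were higher (all genes: 16.9% changed). BMPR1B, a bone morphogenetic protein receptor, has a probe on chr4:96296744-96296803 (plus strand, NCBI36), 6.7 kb from UNC5C probe 3 and on the opposite strand. Its resistant signal in A2780CBNDXL was 461, 455, 444 and 448 against a control signal of 12.85, 23.0, 17.5 and 21.9, without overlap.

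The BMPR1B ratio was 4.62 ± 0.39, though the control rose well above background on 1 array alone, and a further BMPR1B probe was at least 7.84-fold higher. In A2780CBN the BMPR1B probe was not well above background in either channel. An unnamed probe 7.6 kb away was at least 8.75-fold higher, with a measured ratio of 4.10 ± 0.66. With normexp correction these 3 probes were at 1.43, 0.66 and 0.62, the last 2 under the 2-fold limit. More distant genes moved less, with SMARCAD1 at -0.36 in A2780CBN and -0.13 in A2780CBNDXL, and PDLIM5 at -0.92 and 0.29.

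The sequence before the start of UNC5C is given for comparison with that of FLRT3. It covers 250 bases, chr4:95548974-95549223 (minus strand, RefSeq, GRCh38.p14), with CG dinucleotides in capitals.
UNC5C promoter: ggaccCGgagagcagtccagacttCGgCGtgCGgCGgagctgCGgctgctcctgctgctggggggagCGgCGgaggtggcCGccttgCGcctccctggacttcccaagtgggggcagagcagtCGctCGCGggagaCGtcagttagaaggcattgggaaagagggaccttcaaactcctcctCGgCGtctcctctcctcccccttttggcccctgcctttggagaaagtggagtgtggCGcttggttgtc
It held 17 CG dinucleotides at 65.6% GC, and 61.0% of promoters held fewer. CCAAT was found 1 time, and the other motifs searched in the FLRT3 window 0 times.

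Between the lines, the control channels called 0 of 3 members that could be compared at 2-fold with the same sign in 4 pairs, where 788 of 18177 genes (4.34%) passed. In the resistant channels, 3 of 4 members passed as measured, FLRT3, UNC5B and UNC5C, where 2811 of 18390 genes (15.3%) did. FLRT3 and UNC5C were not well above background in A2780CBN, and by its bound FLRT3 fell short of 2-fold. No test of this share was made, since the members were chosen on the ratios that these channels give.

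The list of other FLRT partners held 9 genes, the latrophilins, RND1, ROBO1 and the teneurins, whose direct binding to FLRT proteins is not assumed here. In A2780CBN 4 passed the filter, 0 were higher and 1 was lower, with a median log2 ratio of -0.19 against -0.06 for all genes. In A2780CBNDXL 4 passed, 2 were higher and 0 lower, with a median of 0.91 against 0.04 for all genes. Over all genes that passed, 12.6% were changed in A2780CBN and 16.9% in A2780CBNDXL. The lists below stand beside the same shares and medians, and no list was tested against them. ODZ3, the teneurin now named TENM3, changed in opposite directions, as the next values show.

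In the A2780CBN arrays, the ODZ3 resistant signal was 34.4, 35.9, 20.5 and 27.9 and the control signal 126, 122, 126 and 104.5, a log2 ratio of -2.04 ± 0.39. In the A2780CBNDXL arrays, the resistant signal was 816.5, 836, 672 and 748 and the control signal 255, 256, 229 and 199.7, a ratio of 1.71 ± 0.15. The channels did not overlap in either line. Another ODZ3 probe was at least 2.59-fold lower in A2780CBN and 3.52-fold higher in A2780CBNDXL. The 3 remaining ODZ3 probes did not pass the background filter in A2780CBN (measured ratios -0.82, 0.05 and 0.17), and 2 of them were higher in A2780CBNDXL (2.04 and 1.38). With normexp correction the ratio in A2780CBN was -0.38, under the 2-fold limit.

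ROBO1, a Slit receptor that binds FLRT3, was higher in A2780CBNDXL (1.33 ± 0.21) and was at 0.14 ± 0.04 in A2780CBN. LPHN1 and LPHN2, adhesion receptors of the latrophilin group, did not pass the limit, at -0.51 and 0.89 in A2780CBN and 0.49 and -0.18 in A2780CBNDXL. LPHN3, ODZ1, ODZ2, ODZ4 and RND1 did not pass the background filter in either line.

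The netrins and their other receptors formed a list of 14 genes, and 8 passed in each line. In A2780CBN 3 were higher and 2 lower (all genes: 12.6% changed), with a median of 0.38 (all genes: -0.06). In A2780CBNDXL 1 was higher and 4 lower (all genes: 16.9% changed), with a median of -1.06 (all genes: 0.04). NTN1, which encodes netrin-1, did not pass the background filter in either line, nor did NTN4, DCC or DSCAM. NTN5, a netrin-like secreted protein, was higher in both lines, at 1.57 ± 0.18 in A2780CBN and 2.91 ± 0.29 in A2780CBNDXL, with 1 of its 2 probes, while the other did not pass the filter.

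NTNG1, a membrane-anchored netrin-G, was lower in both lines, with resistant channels near background. It was at least 6.32-fold lower in A2780CBN (measured ratio -4.19 ± 0.55) and at least 6.99-fold lower in A2780CBNDXL (-3.84 ± 0.61). NTNG2, its paralogue, was at 1.09 ± 0.50 in A2780CBN and -1.14 ± 0.29 in A2780CBNDXL. C1orf187, now DRAXIN, a secreted repulsive cue that binds netrin receptors, was at 1.90 ± 0.21 and -1.25 ± 0.21 (1.43 and, not called, -0.74 with its other probe). Of the RGM proteins, which bind neogenin, RGMB was at -1.05 in A2780CBN and -0.98 in A2780CBNDXL (-1.25 and -1.14 with its other probe), RGMA was at -1.16 in A2780CBNDXL (0.12 with its other probe), and neogenin itself (NEO1) did not pass the limit, at 0.70 and -0.60.

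Proteins that act with the UNC5 cytoplasmic domain, with death signalling genes, made a list of 11. In A2780CBN 8 passed, 1 was higher and 0 lower (all genes: 12.6% changed), with a median of -0.14 (all genes: -0.06). In A2780CBNDXL 9 passed, 1 was higher and 2 lower (all genes: 16.9% changed), with a median of -0.05 (all genes: 0.04). FYN, a Src family kinase, was at 1.07 ± 0.22 in A2780CBN and -0.05 ± 0.08 in A2780CBNDXL. MAGED1 was at 1.24 ± 0.10 in A2780CBNDXL and lacked a usable spot on 1 array of A2780CBN. PPP2R1B, a scaffold subunit of phosphatase 2A, was at -0.99 ± 0.06 in A2780CBN and -1.07 ± 0.07 in A2780CBNDXL, while another of its probes, at -1.38 and -0.88, had its call in A2780CBN instead. PTPN11 was at -0.35 and -1.19, and its 3 other probes were at -0.62 to -1.16 in A2780CBNDXL, 1 of them called. DAPK1, a death-associated kinase, did not pass the background filter.

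FGF receptors and feedback genes of FGF signalling, with which FLRT proteins associate, made a list of 15. In A2780CBN 13 passed, 1 was higher and 2 lower (all genes: 12.6% changed), with a median of -0.16 (all genes: -0.06). In A2780CBNDXL 14 passed, 0 were higher and 6 lower (all genes: 16.9% changed), with a median of -0.77 (all genes: 0.04). SPRY4, a feedback inhibitor, was lower in both, at -1.35 ± 0.50 in A2780CBN and -1.13 ± 0.33 in A2780CBNDXL. The inhibitor SPRED1 was at 0.91 ± 0.09 and -1.81 ± 0.19. FGFR1 was at 1.12 ± 0.05 and -0.91 ± 0.13, but its probes disagreed in A2780CBNDXL. Of 3 others well above background throughout, 1 was at -0.58 ± 0.16 there and 2 were at 0.11 ± 0.72 and 0.19 ± 0.65, and a dimmer probe was called lower there (measured ratio -1.71 ± 0.82). The others lower in A2780CBNDXL were FGFR3 (-1.07), FGF2 (-1.18), ETV4 (-1.29) and IL17RD (-1.49), and DUSP6 was lower in A2780CBN (-1.17). With normexp correction FGFR3 (-0.87), FGF2 (-0.68) and IL17RD (-0.47) fell short of 2-fold in A2780CBNDXL, where SPRY4, SPRED1 and ETV4 still reached it. In A2780CBN, FGFR1 (0.98) and DUSP6 (-0.98) fell short.

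Of 7 Slit and Robo genes 6 passed in each line. In A2780CBN 1 was higher and 0 lower (all genes: 12.6% changed), with a median of 0.25 (all genes: -0.06). In A2780CBNDXL 2 were higher and 0 lower (all genes: 16.9% changed), with a median of 0.42 (all genes: 0.04). ROBO2 was at 2.46 ± 0.28 in A2780CBN and 2.45 ± 0.13 in A2780CBNDXL, and its other probe at 1.88 ± 0.21 and 2.23 ± 0.28. Slit genes did not pass the limit in either line.

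The other leucine-rich repeat adhesion proteins made a list of 30 genes, 29 of them on the array, and 18 passed in each line. In A2780CBN 5 were higher and 1 lower (all genes: 12.6% changed), with a median of 0.24 (all genes: -0.06). In A2780CBNDXL 4 were higher and 2 lower (all genes: 16.9% changed), with a median of 0.37 (all genes: 0.04). LRRC4C, LRRN2 and LRFN5 were higher in both lines, at 2.19, 2.60 and 1.76 in A2780CBN and 2.65, 1.22 and 1.48 in A2780CBNDXL. With normexp correction LRFN5 reached 2-fold in neither line, LRRC4C did not in A2780CBN (0.89), and LRRN2 did not in A2780CBNDXL (0.76). LINGO2 was lower in both, at -1.92 ± 0.25 and -1.26 ± 0.23. SLITRK6 was at 3.25 ± 0.27 in A2780CBN and -0.97 ± 0.40 in A2780CBNDXL, and SLITRK3 at 0.29 and 2.32.

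**Figure D4:**
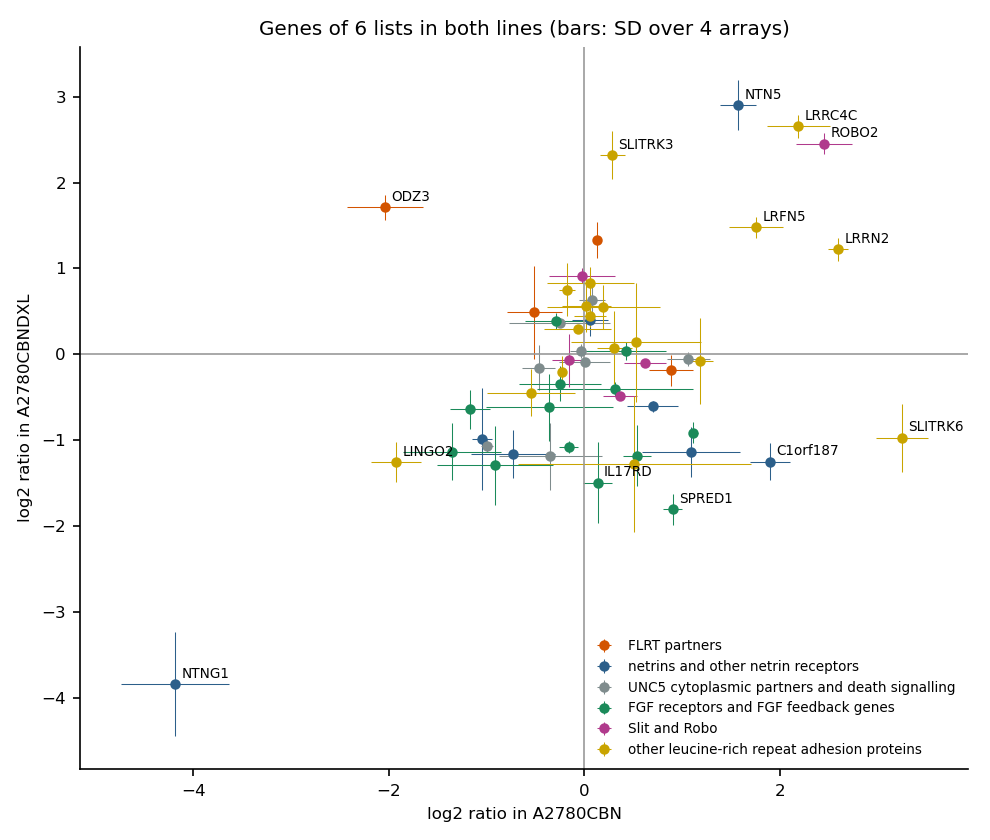
The log2 ratio in A2780CBN (horizontal axis) is plotted against that in A2780CBNDXL (vertical axis) for genes of 6 lists that passed the background filter in both lines, with points for mean values, bars for the SD over 4 arrays, and names for genes with a ratio of at least 1.4 in size. ODZ3 lies at -2.04 and 1.71, NTNG1 at -4.19 and -3.84, and SLITRK6 at 3.25 and -0.97.

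Over these lists and the marker lists, 49 calls were made of a list gene in a line. With normexp correction or background-subtracted signals 0 of the 49 turned their sign, but with normexp 19 of 49 still reached 2-fold. Genes that fell short of it included NTN5, NTNG1, NTNG2 and LINGO2 in both lines. Each line had its own control, and the controls differed for some genes, with B2M higher by 1.29 ± 0.15 and DCN by 2.84 ± 0.64 in the A2780CBNDXL control.

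Reference genes were mostly within 2-fold. Of the 6, 5 passed in A2780CBN, where 1 was higher (B2M, 2.54 ± 0.17, with 0.79 ± 0.50 for its dimmer probe), with a median of -0.15, and 6 passed in A2780CBNDXL, where 0 were changed, with a median of -0.42. GAPDH was at -0.02 in A2780CBN and -0.14 in A2780CBNDXL. ACTB lacked usable spots of its representing probe in A2780CBN.

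Markers of ovarian carcinoma were in part absent. Of 9 markers, 5 passed in each line, and WT1, MUC16, KRT7 and CDH1 did not pass in either. PAX8, a transcription factor of the Müllerian lineage, passed at low signal, between 35.5 and 69.2. In A2780CBN 3 were higher and 0 lower (EPCAM 2.07, VIM 1.08, KRT18 1.05), with a median of 1.05, and in A2780CBNDXL 1 was higher and 0 lower (EPCAM 1.67), with a median of 0.33.

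Among 8 markers of other cell types, 3 passed in A2780CBN, with a median of 0.99, and 4 in A2780CBNDXL, with a median of 1.01. PTPRC, which defines leukocytes, and PECAM1, VWF and ALB did not pass in either line. DCN, a matrix proteoglycan of fibroblasts, was higher in both lines, at 2.21 ± 0.46 in A2780CBN and 3.62 ± 0.29 in A2780CBNDXL, with a resistant signal of 5132 to 6421 in the A2780CBNDXL arrays. With normexp correction the DCN ratio was 0.74 in A2780CBN, under the 2-fold limit, and 3.08 in A2780CBNDXL. COL1A1, a collagen chain of fibroblasts, was at 0.99 ± 0.08 and 2.04 ± 0.19. The part of other cells in the UNC5C and FLRT3 values was not tested.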

How the data were processed

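Expression was measured in 1 pooled RNA sample of each line against its co-cultured control, on 4 arrays of each. The authors deposited Agilent Feature Extraction output (version 10.7.1.1 for slide 1, 10.7.3.1 for slide 2) with probe coordinates on NCBI36. The intensity used here is the processed signal of each channel, which per the file headers was background-subtracted, detrended and dye-normalized, with surrogates near background. A dim channel therefore sets the size of a ratio.

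Forward arrays carry the control in Cy3 and the resistant line in Cy5. For the reverse arrays the dye entries in the labels repeat the forward ones while their names say the opposite. They were turned over as named, after which ratios of opposite directions within a line correlated across probes at 0.581 to 0.739. Outlier spots were dropped, saturation was absent, and spots of a probe were averaged. The mean ratio is that of the forward mean and the reverse mean. The probe with the highest mean log2 signal stood for its gene.

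Channels were scaled between arrays by Aquantile for levels and for lower bounds. Named genes were the members, host genes, and genes within 2 Mb of FLRT3, UNC5B or UNC5C. From the lists, most genes that passed the 2-fold rule, and those that a sentence needed, were named. LRRTM4 (1.18 in A2780CBN) and LRRC4B (-1.28 in A2780CBNDXL), called leucine-rich repeat genes, are named only here. Genes nearest to members in level, found as planned, are left out since levels of different probes cannot be compared. The members and lists were chosen with earlier results of these data known. The windows around UNC5B and UNC5C were added after their values were seen. Gene names are those of the files, and 9 of 10 member probes matched RefSeq symbols. A test across samples was not possible with 1 sample a line. An ANOVA and limma, fitted on arrays, measure array error only. Alternatives were normexp with loess, background-subtracted signals, arrays or slides left out, other filters and fold limits, and the mean over probes. The 2-fold rule, the ANOVA and limma were tested on simulated ratios, while the background filter, the scaling, the bounds and the other steps were not. The values of 1 marker are not reported here. Software was matplotlib 3.10.9, scipy 1.17.1, pandas 2.3.3 and numpy 2.4.6 under Python 3.11.15, and limma 3.58.1 under R 4.3.3.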

Additional observations from a re-analysis of the deposited data

Results flagged for a closer look

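For 9 members or list genes that passed the background filter in both lines and were changed by the rule in at least 1, all 4 arrays of A2780CBN had a log2 ratio of 1 sign and all 4 arrays of A2780CBNDXL the opposite sign. The difference was not tested for any of them, since each line is 1 sample. Among the members this was UNC5B, whose ratio in A2780CBNDXL minus that in A2780CBN was -1.47. The share of all genes with such opposite signs was not counted, so nothing is read from the count of 9.

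Higher in A2780CBNDXL was the ratio of the teneurin gene ODZ3, with a difference of 3.75. In the netrin list the difference was -2.23 for NTNG2 and -3.15 for C1orf187. In the FGF list it was -2.03 for FGFR1, -1.72 for FGF2 and -2.71 for SPRED1. SLITRK6 differed by -4.22 and the reference gene B2M by -3.16. Of the other FGFR1 probes, 2 gave arrays of both signs in A2780CBNDXL, while another was opposite in sign on all arrays of the lines (1.18 and -0.58). With normexp correction UNC5B, NTNG2, FGFR1 and FGF2 reached 2-fold in neither line, ODZ3 no longer did in A2780CBN, and C1orf187 no longer did in A2780CBNDXL.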

How the results depend on the processing

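Normexp correction adds an offset of 50 to both channels, which by construction pulls ratios with a dim channel toward 0. This correction was run together with loess, so the values below changed both steps at once. Changed genes then numbered 605 in A2780CBN and 1174 in A2780CBNDXL, FLRT3 was at -3.63 and -4.01, and UNC5C in A2780CBNDXL at 2.74. The FLRT3 difference between the lines turned to -0.38, that of UNC5C was 2.78, and the difference of the UNC5C control channels was 0.040.

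A limit of 1.5-fold gave 4859 and 5699 changed genes, and 3-fold gave 1121 and 1467, as fewer or more genes pass by construction. Leaving out each array in turn gave 2283 to 2330 changed genes in A2780CBN and 2899 to 3188 in A2780CBNDXL. The same step gave -8.50 to -8.34 and -7.14 to -6.56 for FLRT3, 1.34 to 1.39 for UNC5B in A2780CBN and 5.45 to 5.88 for UNC5C. For differences between lines, leaving out 1 pair of arrays gave 1.07 to 1.94 for FLRT3, -1.75 to -1.18 for UNC5B and 5.82 to 6.59 for UNC5C, and for the control channels 0.02 to 0.33, -0.61 to -0.26 and 1.99 to 2.60.

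The mean over its probes gave 4.68 for UNC5C. Set against the control of the other line, an alternative chosen after seeing the data, UNC5C was at 8.01 (over a channel not well above background) and UNC5B in A2780CBNDXL at -0.55, and the cause was not tested. Ratios were paired within arrays, and the lines were compared over pairs of arrays with the same slide and labelling direction. No pairing across biological samples was possible because each line is 1 sample with its own control. Median signal over background was 2.28 to 3.52 per array and channel, which limits ratios of dim probes.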
